A study of Mus musculus with 23 samples.

Results

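The genes described here encode the nuclear part of oxidative phosphorylation, the respiratory chain and ATP synthase of the inner mitochondrial membrane. They were chosen by symbol from a table of 24421 genes: rows beginning with Nduf, Uqcr, Atp5 or Cox4 to Cox8, and Sdha to Sdhd, Cyc1 and Cox18, without named pseudogenes. This gave 94 members, of which 84 are subunits or subunit isoforms and 10 are assembly or related factors. Complex I holds 36 members, complex II 4, complex III 9, complex IV 20 and complex V 15. Of the 94, 91 passed the low-count filter with which 15475 genes were tested.

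Complexes I and II pass electrons from NADH and succinate to ubiquinone, complex III passes them to cytochrome c and complex IV to oxygen. Complexes I, III and IV pump protons, and complex V, the ATP synthase, uses the gradient to make ATP. Several subunits carry iron-sulfur clusters or heme, so the chain needs iron as well as oxygen, and neurons depend on it for most of their ATP. The mitochondrially encoded subunits are not analysed here.

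Polyadenylated RNA of the hippocampus was sequenced from mouse pups on postnatal day 14, in 23 libraries of 6 groups. Pups had been assigned at random to severe or moderate anemia by phlebotomy (sPIA and mPIA) or to a non-bled control (NBC). The sPIA group (4 females, 4 males) was bled to a haematocrit goal of 18% and the mPIA group (4 females, 4 males) to a goal of 25%. Blood was drawn from the facial vein at 5.25 µl per g body weight 2 times a day from day 3 until the goal, then at 3.5 µl per g each day to day 14. NBC pups (4 females, 3 males) received only a needle prick at the neck. No strain, genetic change or pooling of animals is given, and no measured haematocrit accompanies the libraries. The sPIA and mPIA groups stand for anemia produced by repeated blood loss, with handling and draws that the NBC pups did not undergo. Nothing states that libraries come from separate litters, so p-values measure the spread between these samples.

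Library totals were 15.2 to 26.4 M counts, except mPIA female 3 with 44.4 M, and the members took 0.924% to 1.14% of a library. Markers of hippocampal and other excitatory neurons were present in all libraries, with summed levels of 380 to 623 and 8750 to 11000 CPM (counts scaled to the library total). Ttr, which marks the choroid plexus that adjoins the hippocampus, varied from 1.23 to 4380 CPM between libraries. Library codes in the labels, whose meaning is not given, begin with a number in NBC and mPIA females, with M in mPIA males and with P in the other 3 groups. Their S numbers run from 13 to 20 in all sPIA libraries and from 38 to 55 in all others. A difference between sPIA and the other groups and one between these codes cannot be told apart. In whole tissue, fewer cells of a type and less RNA per cell cannot be told apart either.

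The upstream sequences of some members that the results turn on are shown first, because many of these genes are known targets of the nuclear respiratory factor NRF1 and of ETS factors such as GABP. Each is taken from RefSeq's promoter table (mouse build GRCm38.p6) and is the longest stretch of the 150 bases before the listed start that lies outside annotated exons. Capitals mark 4 motifs, on either strand: TGCGCA and CATGCGC (2 spellings of the core of the NRF1 site), CCGGAA (ETS) and ACGTG (hypoxia response). Ndufa11, Cox5b, Ndufa4 and Atp5e are among the members that fell in sPIA females, and Atp5g1 and Atp5g3 encode the same mature protein but differed in their calls.
Ndufa11 (chr17:56717686-56717761, plus strand): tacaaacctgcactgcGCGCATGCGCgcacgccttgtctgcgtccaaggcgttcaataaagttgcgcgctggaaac
Cox5b (chr1:36691337-36691448, plus strand): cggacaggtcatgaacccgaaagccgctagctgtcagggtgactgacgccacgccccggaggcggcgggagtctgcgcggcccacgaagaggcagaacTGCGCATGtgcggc
Ndufa4 (chr6:11907498-11907600, minus strand): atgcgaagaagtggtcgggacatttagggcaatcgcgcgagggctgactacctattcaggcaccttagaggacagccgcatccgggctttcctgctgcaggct
Atp5e (chr2:174464106-174464251, minus strand): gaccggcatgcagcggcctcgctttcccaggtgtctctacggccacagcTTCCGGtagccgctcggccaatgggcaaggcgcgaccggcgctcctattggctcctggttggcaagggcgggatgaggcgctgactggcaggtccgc
Atp5g1 (chr11:96075671-96075781, minus strand): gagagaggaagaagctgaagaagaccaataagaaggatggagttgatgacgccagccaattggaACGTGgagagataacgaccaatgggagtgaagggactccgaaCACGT
Atp5g3 (chr2:73911327-73911476, minus strand): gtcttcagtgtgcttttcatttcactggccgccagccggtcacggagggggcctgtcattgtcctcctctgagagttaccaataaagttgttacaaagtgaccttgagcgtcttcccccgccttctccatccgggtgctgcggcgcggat

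Ndufa11 holds 2 overlapping matches of CATGCGC, Cox5b 1 match of each NRF1 spelling in the same stretch, Atp5e 1 ETS match and Atp5g1 2 matches of ACGTG. The stretches of Ndufa4 and Atp5g3 hold no match. The table gave a promoter for 73 of the 94 members, and over its full 150 bases TGCGCA occurred in 15.1% of them, against 8.57% of the promoters of all genes tested and 5.1% of all promoters. CATGCGC, a spelling added after the promoters had been seen, occurred in 12.3%, against 4.39% and 2.59%. CCGGAA occurred in 21.9%, against 16.2% and 9.48%, and ACGTG in 9.59%, against 14.5% and 11.2%. Among the 20 members with a promoter that fell in sPIA females against NBC females, 10% held TGCGCA and 25% CATGCGC. Among the 49 that passed no test there, 16.3% held TGCGCA and 6.12% CATGCGC, so the order of these sets turns with the spelling. The same sets held CCGGAA in 25% and 22.4% and ACGTG in 10% and 8.16%.

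Levels between members were compared per kilobase of the gene's median annotated transcript (CPM per kb, median over the 23 libraries). That length is taken over all annotated protein-coding transcripts and need not be that of the RNA present. It was 533 bases for Uqcrc1 and 651 for Ndufs1, and 2675.5 for Atp5g1 beside 683 for Atp5g2. The levels per kb are therefore rough, and close values, such as those of complexes III and V below, give no order. Atp5b, the catalytic beta subunit of the ATP synthase, was the highest at 595 CPM per kb. Ndufa4, a complex IV subunit once assigned to complex I, followed at 452, and the complex IV subunits Cox8a at 436, Cox6b1 at 434, Cox4i1 at 402 and Cox6a1 at 380. The median over the members of a complex was 195 CPM per kb for complex III, 184 for V, 113 for IV, 95.6 for II and 81.8 for I, and 20.7 for the assembly factors. The value for complex IV is lowered by 8 alternative isoforms at 0 to 2.62 CPM per kb. Its 12 common subunits had 66.8 to 452 CPM per kb, most of them above the median of complex III.

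Complex IV has alternative isoforms of several subunits, and these were near the bottom of the range. Cox6a2, the heart and muscle isoform of subunit 6a, had 2.62 CPM per kb, Ndufa4l2, a hypoxia-induced relative of Ndufa4, 2.38, and Cox7a1, the muscle isoform of subunit 7a, 2.01. Cox6b2 had 1.81, Cox4i2, the lung and hypoxia isoform of subunit 4, 0.923 and Cox7b2 0.593 CPM per kb. The muscle isoform Cox8b had 0 to 5 counts in a library and Cox8c had 0 in all, and neither was tested. Ndufs5, a complex I subunit, was also not tested, at 0 to 5 counts in a library, while its near-identical neighbour in sequence, BC002163, had 278 to 1700 counts. The labels and headers do not say how reads that map to both were treated.

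Moderate anemia was compared with no bleeding in each sex. In mPIA females, 0 of 91 members passed edgeR's quasi-likelihood test with Benjamini-Hochberg adjustment over all genes at 0.05, where 0.00646% of all genes tested did. DESeq2 called 0 as well, and 0 members had an unadjusted p under 0.05. The members' median log2 change was -0.0155, against -0.00584 over all genes. The smallest p was that of Ndufaf3, a complex I assembly factor, at -0.16 ± 0.10 log2 (SE, adjusted p = 1). In mPIA males, 0 of 91 members passed by edgeR or DESeq2, 2 had an unadjusted p under 0.05, and 0.653% of all genes passed (0.155% higher, 0.498% lower). Their median change was 0.0193, against 0.00847 over all genes. Ndufaf2, another complex I assembly factor, had 10.4 to 12.6 CPM in the 4 mPIA males, against 13.1, 13.9 and 16.6 CPM in NBC males. The groups did not overlap, but the change of -0.37 ± 0.12 log2 had an adjusted p of 0.126. For the difference between the sexes in the mPIA effect, edgeR called 0 members and 0% of all genes, 0 members had an unadjusted p under 0.05, and DESeq2 called 0 members.

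Severe anemia in females gave a different picture: members of all 5 complexes were lower in sPIA females than in NBC females. By edgeR's quasi-likelihood test 23 of the 91 members fell and 2 rose, which is 27.5% of members, against 16% of all genes tested (7.86% lower and 8.12% higher). The members' median log2 change was -0.163, against -6.53e-05 over all genes, and 76 members had a negative change. Complex I had 8 of 35 tested members lower, complex II 1 of 4, complex III 3 of 9, complex IV 4 of 18 and complex V 5 of 15. Of the assembly factors 2 of 10 were lower. The 2 members that rose belong to complexes IV and V. The median change was -0.149 for complex I, -0.171 for II, -0.211 for III, -0.187 for IV, -0.148 for V and -0.0682 for the assembly factors. Markers of other cells moved in the same comparison: of 7 astrocyte and 7 endothelial markers 2 each were called higher and 0 lower. Summed astrocyte markers were 6440 to 7800 CPM in sPIA females and 5980 to 6160 CPM in NBC females, and endothelial markers 253 to 294 CPM in sPIA females and 210 to 226 CPM in NBC females, neither with overlap. Their part in the members' changes was not tested.

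**Figure D1:**
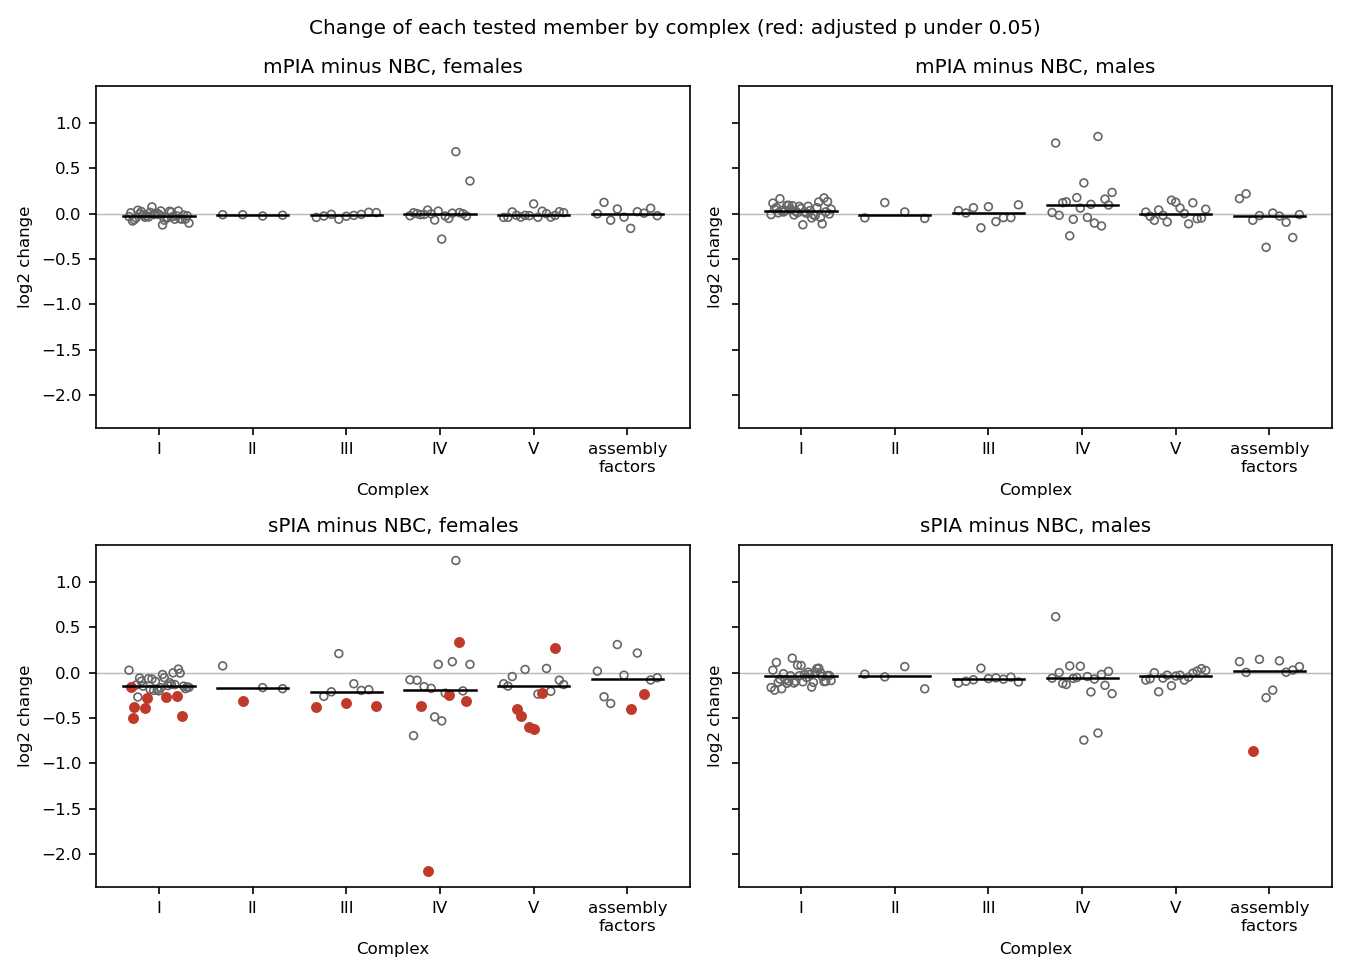
Log2 change of each of the 91 tested members (points, red where the adjusted p is under 0.05) by complex, with the median of each complex as a line; panels show mPIA and sPIA minus NBC in females (left) and males (right). The red points are 25 in sPIA females, 1 in sPIA males and 0 in both mPIA panels.

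In complex I, Ndufa11, an accessory subunit of the membrane arm (mm10 chr17:56717767-56722141, plus strand), had 47, 43.7, 42.8 and 41.7 CPM in sPIA females, against 66.4, 65.1, 56.8 and 58.7 CPM in NBC females. All 4 sPIA values lay below all 4 NBC values, and the change was -0.50 ± 0.08 log2 (SE, edgeR adjusted p = 0.000159). Its exons overlap Vmac on the opposite strand, which had 9.99 to 12.9 CPM in sPIA females and 10.1 to 11.2 CPM in NBC females. Ndufs7, the iron-sulfur subunit next to the ubiquinone site, had 33.4, 36.3, 30.1 and 31.1 CPM in sPIA females and 52.9, 45.9, 40.6 and 42.5 CPM in NBC females. The groups did not overlap, at -0.47 ± 0.10 log2 (adjusted p = 0.00255). Ndufs3, the other core subunit that fell, carries no cluster, and its gene has a near-identical pseudogene. The accessory subunits Ndufb8, Ndufa8, Ndufa12, Ndufa7 and Ndufa10 also fell, by 0.16 log2 (Ndufa10) to 0.39 log2 (Ndufa7), and Ndufa10 was the only called member of complex I whose groups overlapped.

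The remaining core subunits, which hold most of the clusters and the flavin of complex I, did not pass. Ndufv1, the NADH-binding subunit, had 106, 101, 105 and 104 CPM in sPIA females and 119, 121, 106 and 124 CPM in NBC females (-0.18 ± 0.07 log2, adjusted p = 0.0848). Ndufs1, which carries several clusters, had 174, 196, 188 and 185 CPM in sPIA females and 171, 196, 186 and 191 CPM in NBC females. Its values overlapped throughout, and its change was -0.00178 ± 0.069 log2 (adjusted p = 0.991). Ndufs8 was at -0.15 ± 0.09 log2 (adjusted p = 0.269) and Ndufv2 at -0.16 ± 0.06 log2 (adjusted p = 0.066).

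Complex II, which is also the succinate dehydrogenase of the citric acid cycle, has 4 subunits and no mitochondrially encoded one. Sdhb, the iron-sulfur subunit (chr4:140961203-140979193, plus strand), had 102, 116, 112 and 105 CPM in sPIA females, against 129, 141, 134 and 133 CPM in NBC females. All sPIA values were lower, at -0.31 ± 0.06 log2 (adjusted p = 0.00106). Sdha, the flavin subunit that takes the electrons from succinate, had 347, 379, 336 and 343 CPM in sPIA females and 325, 349, 328 and 332 CPM in NBC females. These groups overlapped, at 0.08 ± 0.06 log2 (adjusted p = 0.429). The membrane anchors Sdhc and Sdhd, which hold the heme, changed by -0.16 ± 0.12 and -0.18 ± 0.07 log2, and neither passed (adjusted p = 0.382 and 0.0963).

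In complex III, Cyc1, the heme protein cytochrome c1 (chr15:76343523-76346260, plus strand), had 129, 138, 122 and 124 CPM in sPIA females, against 166, 182, 153 and 164 CPM in NBC females. The fall was 0.38 ± 0.08 on the log2 scale, with no overlap (adjusted p = 0.00142). Uqcrc1, a core protein of the matrix side, averaged 173 ± 8.66 CPM in sPIA females and 219 ± 9.61 CPM in NBC females (SD, n = 4 each; adjusted p = 0.00169). Uqcrq, a small subunit beside cytochrome b, had 68.2, 58.8, 59.9 and 57.7 CPM in sPIA females and 81.2, 88.5, 74.7 and 71.9 CPM in NBC females (-0.37 ± 0.08 log2, adjusted p = 0.00248). Its groups did not overlap. Uqcrfs1, the Rieske iron-sulfur protein, had a change of -0.20 ± 0.07 log2 (adjusted p = 0.0553), also without overlap. The 10 subunits that bind iron-sulfur clusters or heme were all negative in sPIA females, with a median of -0.176, and 3 of them passed, Sdhb, Cyc1 and Ndufs7, where 7.86% of all genes tested were called lower. Most of the 91 tested members were negative too, with a similar median, and 23 of them fell. Sdhb, Cyc1 and Ndufs7 all lost their call with the GC and length trend removed. Ndufs7 was then at -0.24 log2 (adjusted p = 0.107), Sdhb at -0.17 (adjusted p = 0.113) and Cyc1 at -0.12 (adjusted p = 0.443). Ndufv2, another of the 10, gained a call in that fit, at -0.23 log2 (edgeR adjusted p = 0.00776).

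**Figure D2:**
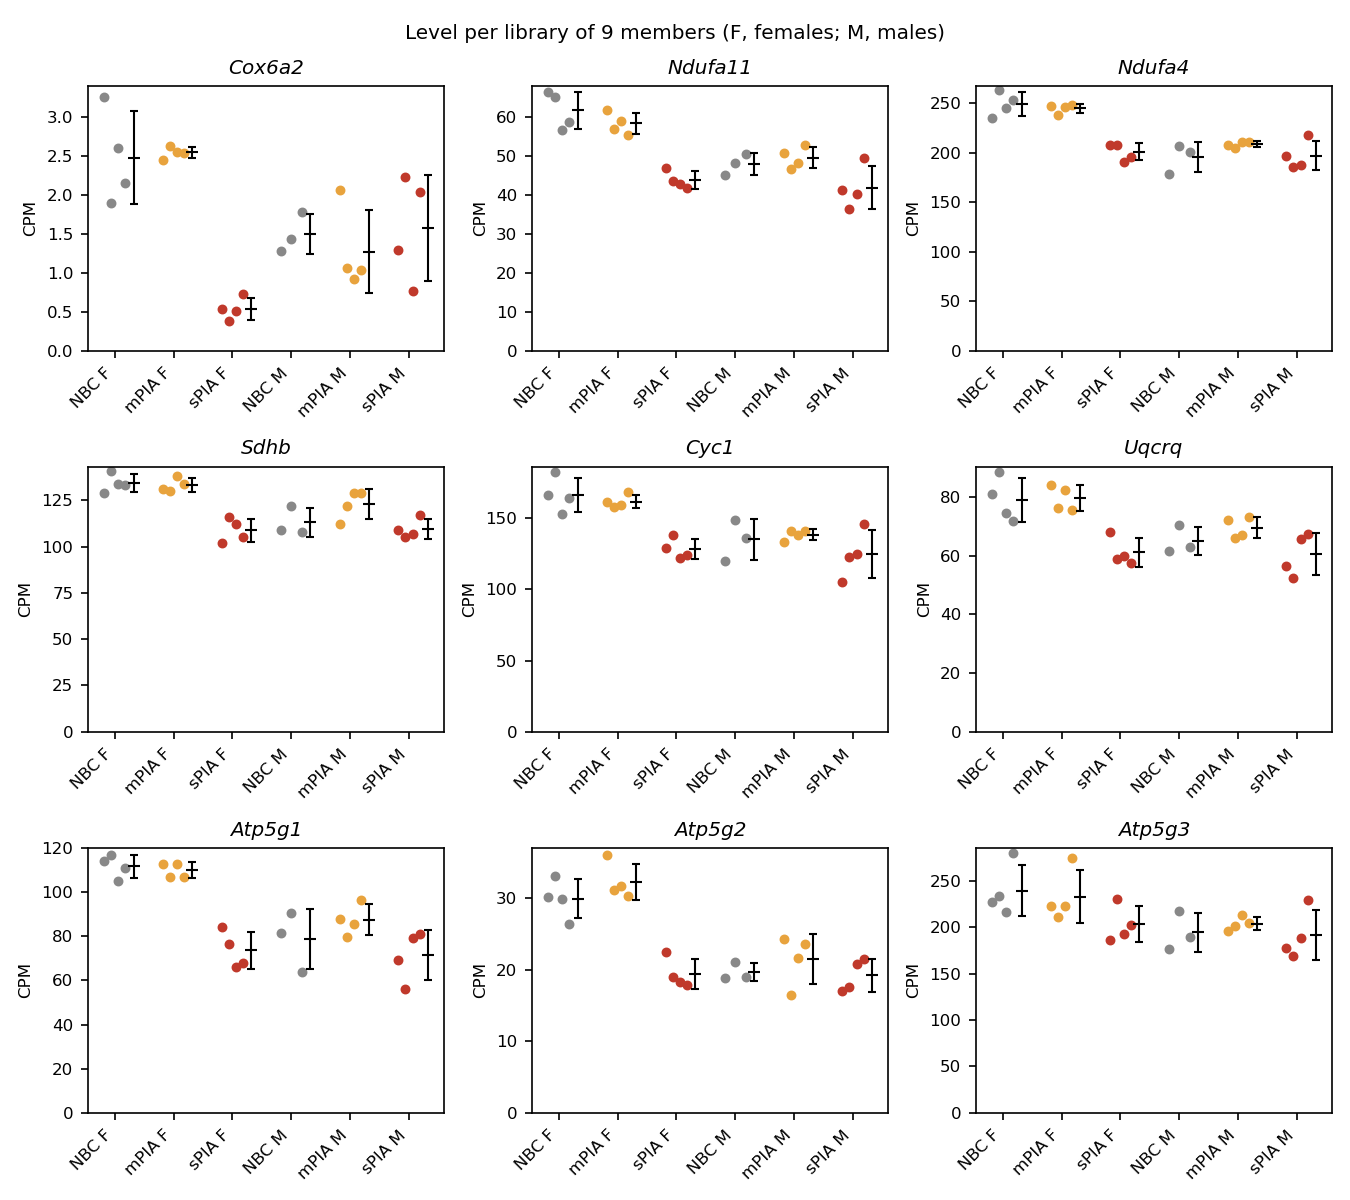
CPM of 9 members in each library (points), with the group mean and SD beside them; groups run from NBC through mPIA to sPIA, females (F) then males (M). For Ndufa11 the 4 sPIA females sit between 41.7 and 47 CPM, below the NBC females at 56.8 to 66.4 CPM and within the 36.4 to 52.8 CPM of the male libraries.

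In complex IV, Cox6a2 had the largest change of any member. It had 0.53, 0.387, 0.513 and 0.73 CPM in sPIA females, against 3.25, 1.89, 2.6 and 2.15 CPM in NBC females. The groups were far apart, at -2.19 ± 0.35 log2 (adjusted p = 0.000147), but the values rest on 8 to 13 counts in an sPIA female library and 33 to 55 in an NBC female library. Cox6a2 (chr7:128205435-128206387, minus strand) encodes a muscle isoform that in the brain is known from parvalbumin interneurons. Pvalb had 19.9, 10.8, 12.7 and 16.3 CPM in sPIA females and 16.2, 17, 19.7 and 15.7 CPM in NBC females, which overlapped (adjusted p = 0.552). Sst, of another interneuron class, had 59.4, 92.7, 76.7 and 70.3 CPM in sPIA females and 185, 183, 172 and 158 CPM in NBC females (-1.22 ± 0.13 log2, adjusted p = 1.5e-05).

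Over the 6 inhibitory neuron markers, 2 were called lower and 0 higher, where 7.86% and 8.12% of all genes were, and their summed level was 671 to 767 CPM in sPIA females and 813 to 886 CPM in NBC females. The part of interneurons in the Cox6a2 result was not tested. Of 4 muscle markers only Acta1 passed the filter, Ckm was at 0 in all sPIA females and at most 0.0539 CPM in NBC females, and the summed level was 1.59 to 3.91 CPM in sPIA females and 3.9 to 4.75 CPM in NBC females. Itgad, which overlaps Cox6a2 on the opposite strand, had 0.225 to 1.22 CPM in sPIA females and 0.455 to 0.768 CPM in NBC females.

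The abundant complex IV subunits changed less. Ndufa4 (chr6:11900292-11907497, minus strand) had 208, 208, 191 and 196 CPM in sPIA females and 235, 263, 245 and 253 CPM in NBC females, with no overlap (-0.31 ± 0.06 log2, adjusted p = 0.000716). Cox5b, a zinc-binding subunit (chr1:36691449-36693681, plus strand), had 139, 111, 111 and 110 CPM in sPIA females and 154, 166, 145 and 141 CPM in NBC females (-0.37 ± 0.07 log2, adjusted p = 8e-04). The groups of Cox5b did not overlap, and sPIA female 1 stood above the other 3. Cox7a2l, which joins complexes III and IV into supercomplexes, fell by 0.25 log2 (adjusted p = 0.0173).

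Cox7c, a small transmembrane subunit, went the other way. It had 44.1, 38.9, 38.1 and 39.5 CPM in sPIA females, against 28.8, 33.1, 28.9 and 36.1 CPM in NBC females. All sPIA values were higher, at 0.34 ± 0.09 log2 (adjusted p = 0.0136). Cox7c has a near-identical pseudogene, so its counts are uncertain. The ubiquitous isoform Cox4i1 was at -0.08 ± 0.06 log2 (adjusted p = 0.44) and the hypoxia isoform Cox4i2 at -0.70 ± 0.43 log2 (adjusted p = 0.301). Ndufa4l2 was at 0.09 ± 0.30 log2 (adjusted p = 0.882), Cox6a1 at -0.15 ± 0.07 (adjusted p = 0.158) and Cox7a1 at -0.53 ± 0.41 (adjusted p = 0.418), each with overlapping groups.

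In complex V, the largest changes were in subunit c, the ring that turns in the membrane. Atp5g1, Atp5g2 and Atp5g3 encode the same mature protein with different import sequences. Atp5g1 (chr11:96068852-96075670, minus strand) had 84.1, 76.6, 65.9 and 67.9 CPM in sPIA females, against 114, 117, 105 and 111 CPM in NBC females. Atp5g2 (chr15:102662864-102672352, minus strand) had 22.5, 19, 18.3 and 17.9 CPM in sPIA females, against 30.1, 33.1, 29.9 and 26.4 CPM in NBC females. Neither gene's groups overlapped, with changes of -0.60 ± 0.10 log2 for Atp5g1 (adjusted p = 0.00029) and -0.62 ± 0.11 log2 for Atp5g2 (adjusted p = 0.000503). Atp5g3 (chr2:73908447-73911326, minus strand) had 187, 231, 193 and 203 CPM in sPIA females and 228, 234, 217 and 280 CPM in NBC females. Its groups overlapped, and its change of -0.24 ± 0.10 log2 did not pass (adjusted p = 0.0968).

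Summed over the 3 genes, without adjustment for length, subunit c averaged 297 ± 21.2 CPM in sPIA females and 381 ± 27.4 CPM in NBC females (SD, n = 4 each). Atp5g3 made up on average 68.6% of that sum in sPIA females (63.7% to 70.7%) and 62.7% in NBC females (60.9% to 67.1%), and these ranges overlapped. Atp5g1 and Atp5g2 have near-identical pseudogenes, as do Atp5h and Atp5k below. Among the other subunits of complex V, Atp5d (-0.40 log2) and Atp5e (-0.48 log2), of the central stalk, and Atp5h (-0.23 log2), of the side stalk, fell. Atp5e had 51.8, 50.7, 47.2 and 47.5 CPM in sPIA females and 67.7, 71.6, 65.1 and 70.4 CPM in NBC females, without overlap. Atp5k, subunit e of the dimer interface, was higher, with 94.3, 96, 73.2 and 83.1 CPM in sPIA females and 70.2, 76.1, 71.1 and 68.9 CPM in NBC females. These groups overlapped (0.28 ± 0.09 log2, adjusted p = 0.0296). Atp5b had 1050, 1160, 1060 and 1080 CPM in sPIA females and 1170, 1250, 1170 and 1220 CPM in NBC females, lower without overlap but not past the threshold (-0.15 ± 0.06 log2, adjusted p = 0.0825).

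Groups did not overlap for 29 members that were lower and 2 that were higher in sPIA females, where 11.2% and 9.85% of all genes tested were lower and higher in this way. Of the 25 members called, 18 passed in every fit that left out 1 library. Ndufaf5 lost its call in all 8 such fits, Ndufa10 in 6 and Atp5k in 5. Ndufa7 lost it without NBC female 1 or 2 or sPIA female 3 or 4, and Cox7a2l without NBC female 2 or sPIA female 2 or 4. Cox7c lost it without NBC female 1 (adjusted p = 0.0581) and Ndufs3 without NBC female 4 (adjusted p = 0.0557). Near-identical genes (at least 95% identity over at least 50% of a transcript) exist for 6 of the 25 called and 6 of the 66 not called members. Exons overlap another gene on the opposite strand in 5 of the 25 and 24 of the 66, and whether the counts use strand is not stated.

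Members have short transcripts: their median annotated length was 713.5 bases and their GC content 52%, against 2216 bases and 50.9% over all genes tested. In the same comparison of sPIA with NBC females, genes under 1000 bases that are not members had a median log2 change of -0.0641 (2569 genes), against -0.173 for the 65 members of that length. In the next class, up to 2000 bases, the medians were -0.0546 for other genes and -0.137 for members. Other genes of 4000 bases and over were at 0.0839. With each library's trend on GC content and length removed, 11 members were lower and 2 higher, and the members' median was -0.101, against 0.0162 over all genes. Of the 25 called members 12 kept their call and 22 came closer to 0, and Ndufv2 gained one. Atp5g1 was then at -0.59 (adjusted p = 0.000728) and Ndufa4 at -0.38 (adjusted p = 0.000353). The removal depends on the length assigned to a gene: Atp5g1 entered at 2675.5 bases and Atp5g2 at 683. Atp5g1 hardly moved, and Atp5g2 went from -0.62 to -0.45. In all alternative fits of this comparison and all fits without 1 library, 9 members passed: Atp5g1, Atp5g2, Atp5h, Cox5b, Cox6a2, Ndufa11, Ndufa12, Ndufa4 and Uqcrq.

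**Figure D3:**
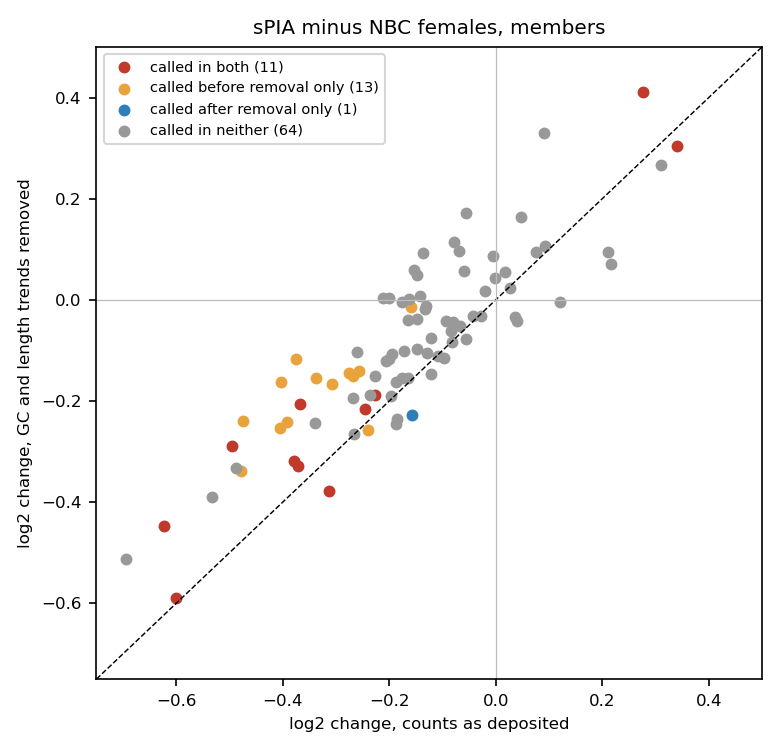
Log2 change of 89 tested members in sPIA minus NBC females as deposited (x axis) and with the GC and length trends removed (y axis), coloured by whether the member was called; the dashed line marks equal values. Most points lie above the line at negative changes, and 11 of the drawn members were called on both axes, with Cox6a2 and Cox7b2 outside the drawn range.

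Other genes of the pathway came from lists by function, and gave calls in both directions in sPIA females against NBC females, where 7.86% of all genes tested were called lower and 8.12% higher. Of 13 genes of membrane exchange 3 fell, among them Slc25a3, the phosphate carrier that feeds the ATP synthase, with 288, 238, 301 and 304 CPM in sPIA females and 364, 366, 362 and 395 CPM in NBC females (-0.40 ± 0.07 log2, adjusted p = 0.000375). Of 17 electron carriers and entry points 4 fell, all of coenzyme Q synthesis or function (Coq2, Coq4, Coq9 and Coq10a), and Cycs, cytochrome c itself, was at 0.07 ± 0.09 log2 (adjusted p = 0.666). Of 5 genes of ATP synthase assembly and regulation Atpif1, its inhibitor, fell by 0.23 log2 (adjusted p = 0.00865). Of 17 genes of import and cristae, Chchd6 and Phb2 fell and Tomm70a rose.

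Of 19 genes of iron-sulfur cluster assembly, Iscu, the scaffold on which clusters are built, and Glrx5, which helps pass them on, fell. Iscu had 22.9 to 29.9 CPM in the 4 sPIA females and 31.3 to 37.7 CPM in the 4 NBC females, without overlap (-0.44 ± 0.09 log2, adjusted p = 0.00111). Of 20 complex IV, 7 further complex I and 6 complex III assembly factors 0 passed by edgeR, with 5, 2 and 0 at an unadjusted p under 0.05, and of 4 for complex II Sdhaf1 fell. Of 23 regulators of mitochondrial biogenesis Gabpa and Yy1 rose, by 0.39 log2 (adjusted p = 0.00233) and 0.40 log2 (adjusted p = 0.00127). Ppargc1a (-0.05 ± 0.08 log2, adjusted p = 0.71), Nrf1 (0.03 ± 0.10, adjusted p = 0.884) and Tfam (0.14 ± 0.09, adjusted p = 0.292) did not pass. Of 14 hypoxia-linked genes Hif1a and Bnip3 rose. Of 77 mitochondrial ribosomal proteins 9 fell and 0 rose (median -0.121), and of 79 cytosolic ones 23 fell and 6 rose (median -0.164), beside the same 7.86% and 8.12% of all genes.

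Severe and moderate anemia were also compared directly in females. Against mPIA females, sPIA females had 23 of 91 members lower and 3 higher by edgeR, where 16.1% of all genes tested were called (8.67% higher, 7.48% lower), and the members' median was -0.148 log2. This comparison shares the sPIA females with the one against NBC. The mPIA female values stood near those of NBC: Atp5g2 averaged 19.4 ± 2.12 CPM in sPIA females and 32.3 ± 2.53 CPM in mPIA females (SD, n = 4 each), a change of -0.73 ± 0.11 log2 (adjusted p = 6.6e-05). Cox6a2 averaged 0.54 ± 0.142 CPM in sPIA females and 2.54 ± 0.074 CPM in mPIA females (-2.23 ± 0.35 log2, adjusted p = 8.2e-05). Uqcrb, a small complex III subunit, rose by 0.27 ± 0.08 log2 (adjusted p = 0.0135), beside Cox7c and Atp5k, and all 3 have near-identical pseudogenes. With the GC and length trend removed, 11 members were called in place of 26, and Uqcrb was at 0.16 log2 (adjusted p = 0.166). Among the 11 is Atp5sl, listed as a complex I assembly factor, at -0.39 log2 in both fits. It had no annotated length or GC content, so no trend was removed from it.

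Males showed few calls. In sPIA males against NBC males 1 of 91 members fell and 0 rose, where 0.194% of all genes tested were called (0.084% higher, 0.11% lower), and the members' median was -0.0498 log2. The member is Cox18, the insertase that helps place a mitochondrially encoded subunit of complex IV in the membrane (chr5:90214724-90224001, minus strand). It had 9.03, 7.85, 12.3 and 10.4 CPM in sPIA males, against 18.2, 16.4 and 19.6 CPM in NBC males. The groups were apart, at -0.86 ± 0.15 log2 (adjusted p = 0.0111), but the call was lost without NBC male 4 (adjusted p = 0.0878) and when only these groups were fitted. In sPIA females it had 18.1, 10.4, 18.1 and 18.2 CPM, so 1 of the 4 was as low as the sPIA males, against 20.9, 21.9, 20.3 and 18.9 CPM in NBC females (-0.34 ± 0.14 log2, adjusted p = 0.1). The difference between the sexes in this effect was 0.52 ± 0.21 log2 and did not pass (adjusted p = 0.2). Cox7a2l was next in males, at -0.21 ± 0.08 log2 (adjusted p = 0.242).

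Against mPIA males, which shares the sPIA males, 4 of 91 members were lower and 0 higher, where 4.92% of all genes tested were called (2.13% higher, 2.8% lower), and the median was -0.0811 log2. Cox18 was lower than 17, 15.7, 16.1 and 19.9 CPM in mPIA males (-0.79 ± 0.14 log2, adjusted p = 0.00386). The other 3 were complex IV subunits or partners: Cox7a2l at -0.32 ± 0.07 log2 (adjusted p = 0.0128), Cox6a1 at -0.26 ± 0.07 (adjusted p = 0.0372) and Cox5b at -0.24 ± 0.07 (adjusted p = 0.0436). The groups of Cox6a1 overlapped. Of the 4, only Cox18 passed in every fit that left out 1 library, and Cox6a1 and Cox5b lost their calls in most such fits. Without sPIA male 4, whose members stood highest among the sPIA males, 17 members were called, and without sPIA male 1 or mPIA male 1 only Cox18 was.

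**Figure D4:**
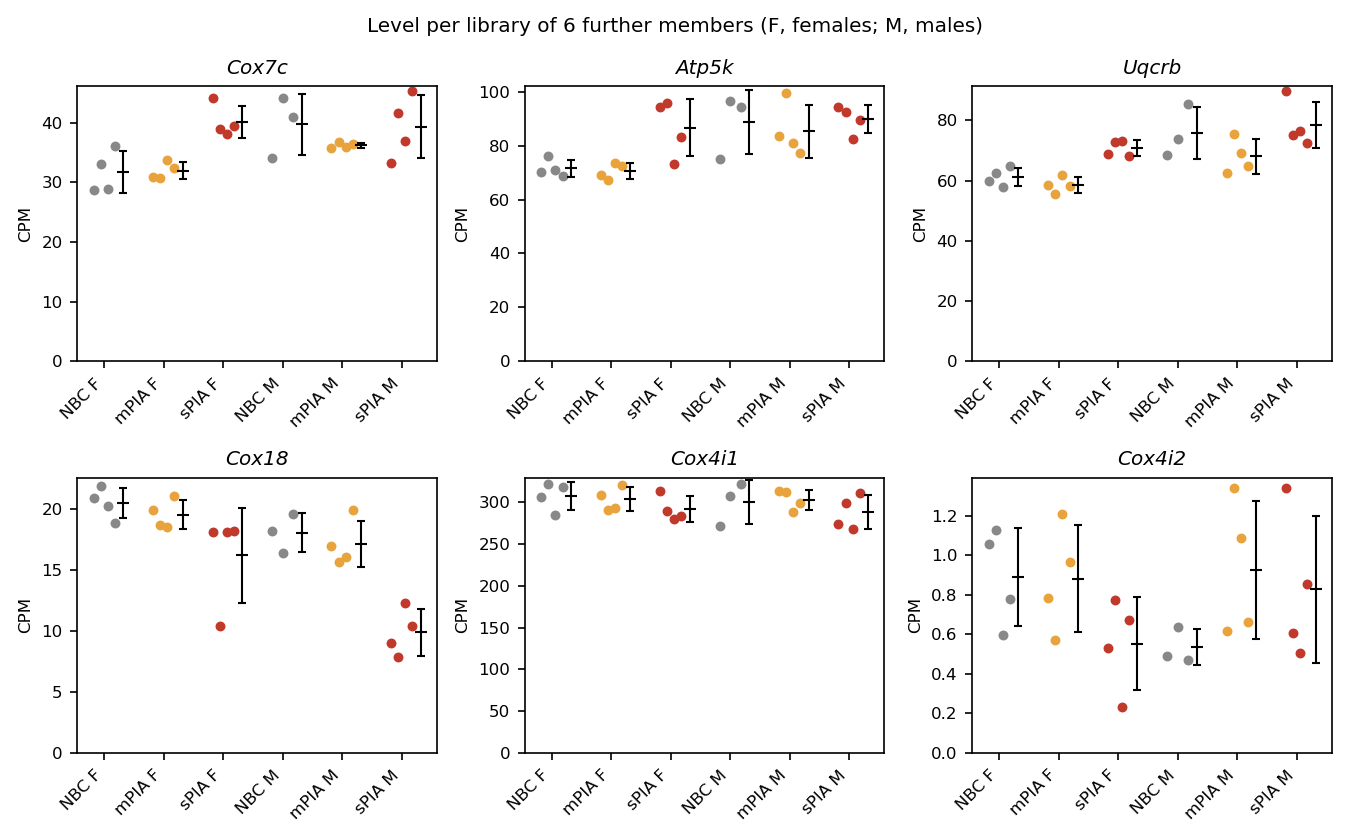
CPM of 6 further members in each library (points), with the group mean and SD beside them; groups run from NBC through mPIA to sPIA, females (F) then males (M). Cox18 lies between 7.85 and 12.3 CPM in the sPIA males and at 10.4 CPM in sPIA female 2, while all other libraries are at 15.7 CPM or above.

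Whether severe anemia acted differently in the sexes was tested by the difference of the sPIA effects, females minus males. Of 91 members 1 was called, Cox6a2, where 0.95% of all genes tested were (0.601% higher, 0.349% lower), and the members' median was -0.11 log2. Cox6a2 had 1.29, 2.23, 0.76 and 2.03 CPM in sPIA males, against 1.28, 1.43 and 1.78 CPM in NBC males, an overlap throughout (0.07 ± 0.34 log2). The difference between its sPIA effects in females and males was -2.27 ± 0.49 log2 (adjusted p = 0.0263). It was lost without NBC female 1 (adjusted p = 0.0753), sPIA male 4 (0.0729) or sPIA female 3 (0.0582). Ndufa4 (-0.33 ± 0.09 log2, adjusted p = 0.0597), Atp5g2 (-0.59 ± 0.17, adjusted p = 0.0745) and Ndufa12 (-0.49 ± 0.14, adjusted p = 0.0844) came next and did not pass. The fall of the other 22 members in females is therefore not shown to differ from that in males. Label codes begin with a number in NBC females and with P in sPIA females, NBC males and sPIA males. A difference between the sexes in the sPIA effect and one between these codes cannot be told apart.

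Across the 6 groups, the NBC females were themselves unlike the NBC males. Between NBC females and NBC males, 16 of 91 members were higher in females and 3 lower, where 10.1% of all genes tested were called (4.66% higher, 5.49% lower), with a members' median of 0.13 log2. Ndufa4 averaged 249 ± 11.6 CPM in NBC females (SD, n = 4) and 195 ± 15.1 CPM in NBC males (SD, n = 3), at 0.35 ± 0.06 log2 (adjusted p = 0.00141). Atp5g2 averaged 29.9 ± 2.73 CPM in NBC females (SD, n = 4) and 19.6 ± 1.29 CPM in NBC males (SD, n = 3), at 0.61 ± 0.12 log2 (adjusted p = 0.00296). The 3 that were lower in NBC females were Uqcrb, Atp5k and Cox7c. Only 5 members were called without NBC male 4, 11 without NBC female 1 and 12 without NBC female 2. With the GC and length trend removed, 3 members were higher in NBC females and 4 lower.

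For all 23 members that fell in sPIA females, the means of NBC and mPIA females lay above those of all 3 male groups. For 15 of the 23 the sPIA female mean lay within the range of the male means, and the exceptions were Atp5e, Atp5h, Cox5b, Cox6a2, Ndufa12, Ndufaf5, Ndufs3 and Sdhb. The 23 were chosen for lower values in sPIA than in NBC females, so these counts follow in part from that choice. The same counts were not made over all genes, and they are no separate support. Summed astrocyte markers were lowest in NBC and mPIA females, with some overlap of mPIA females and sPIA males: 5980 to 6160, 5880 to 6410 and 6440 to 7800 CPM in NBC, mPIA and sPIA females, and 7110 to 8130, 6780 to 7790 and 6270 to 8010 CPM in NBC, mPIA and sPIA males. Their part in this pattern was not tested. Uqcrc1, for example, averaged 219 ± 9.61, 215 ± 7.2 and 173 ± 8.66 CPM in NBC, mPIA and sPIA females, and 178 ± 12.7, 187 ± 9.75 and 170 ± 21.9 CPM in NBC, mPIA and sPIA males (SD, n = 4, NBC males n = 3). Ndufa4 averaged 249 ± 11.6, 245 ± 4.21 and 201 ± 8.6 CPM in the females and 195 ± 15.1, 209 ± 2.77 and 197 ± 15.2 CPM in the males, in the same order of groups.

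Set side by side, the median log2 change of the 23 was -0.371 for sPIA against NBC in females, -0.0816 for sPIA against NBC in males and 0.283 for NBC females against NBC males. These comparisons share the NBC females or the NBC males, and the 23 were chosen by the first, so they are not independent of each other. Cox7c and Atp5k, the 2 that rose in sPIA females and were chosen by that comparison, were lowest in NBC and mPIA females. Cox7c averaged 31.7 ± 3.52, 31.9 ± 1.4 and 40.1 ± 2.71 CPM in NBC, mPIA and sPIA females, and 39.7 ± 5.1, 36.2 ± 0.406 and 39.3 ± 5.29 CPM in NBC, mPIA and sPIA males. The NBC and mPIA females are also the libraries whose label codes begin with a number, so that code and this pattern cannot be told apart.

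**Figure D5:**
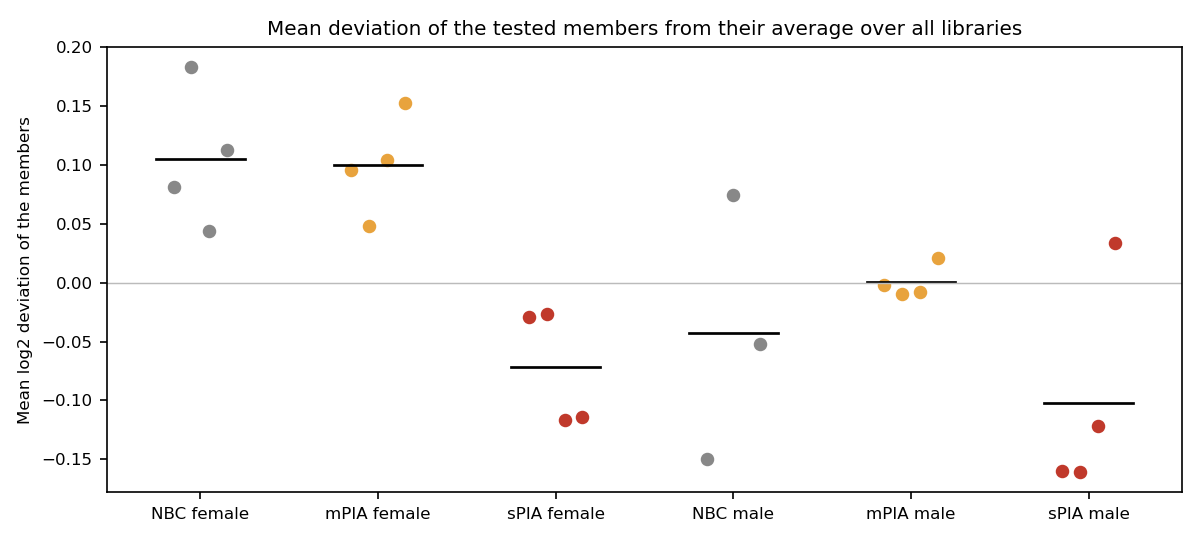
Mean deviation of the tested members from their average over all libraries (log2) in each library (points), with the group mean as a line. The NBC and mPIA females lie between 0.0436 and 0.183, the sPIA females between -0.117 and -0.0265, and the NBC and sPIA males spread from -0.161 to 0.0746.

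By library, the members' mean log2 deviation was 0.0436 to 0.183 in NBC females, 0.048 to 0.153 in mPIA females and -0.117 to -0.0265 in sPIA females. Among males the NBC libraries ranged between -0.15 and 0.0746, the mPIA libraries between -0.0098 and 0.0212 and the sPIA libraries between -0.161 and 0.0339, and all 3 groups overlapped. The sPIA females did not overlap the NBC or mPIA females.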

How the data were processed

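Hippocampal RNA was isolated with the RNAqueous kit and made into libraries by Illumina TruSeq, per the labels' protocols. The deposited table holds whole-number counts per gene, which the authors had not normalized, as the values show. FastQC, TopHat2 2.0.13, Subread and edgeR with build mm10 are named in the submitters' processing notes. The role of each tool, the gene models, strand use and the handling of multiply mapping reads are not given there, so genes with near-identical copies or opposite-strand overlaps are uncertain.

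The counts were tested with edgeR 4.0.16 (R 4.3.3; quasi-likelihood, robust, TMM, filterByExpr with minimum count 10 and minimum total 15). All 23 libraries entered 1 fit of 6 group means, and p-values were adjusted by Benjamini-Hochberg over 15475 genes per comparison at 0.05. CPM use TMM-scaled totals, log2 CPM a prior count of 2, and the SE of a log2 change is its size over the root of F. Members were counted among the calls. Counts of replicates differed beyond counting noise in every pair (chi-square of 3 to 30.1 per degree of freedom) and each library counted as 1 sample.

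Alternatives were DESeq2 1.42.0, RLE factors, library totals, no filter, only the groups compared, a replicate block, GC and length trends removed per library, leaving out each replicate, and, for mPIA against NBC females, a block of library codes. A choroid plexus score as a covariate was chosen after seeing the data. Fits were tested on simulated data. Gene positions, lengths and GC come from GENCODE M21 (mm10; 23350 of 24421 rows and 93 of 94 members matched), copies from BLAST 2.17.0, and promoter sequences from RefSeq. Positions span the whole gene.

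The members and lists were chosen with earlier results of these data known. Named are the called members with the 12 smallest p and the 6 largest changes each way per comparison, all called where fewer than 12, the next 5 by p, complex II, the most abundant members, set isoforms and iron or heme subunits, and up to 4 called genes per other list. Not all of these are printed, and 1 result of these lists is not reported here. Figures were drawn with matplotlib 3.10.9 in Python 3.11.15.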

Additional observations from a re-analysis of the deposited data

Results flagged for a closer look

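The following values stood apart from the other libraries of their group by Dixon's criterion, which was applied to 25 members in the 5 groups of 4 (125 checks, of which chance alone flags about 1 in 20). Cox5b was 139 CPM in sPIA female 1, with the other sPIA females at 110 to 111 CPM. Cox18 was 10.4 CPM in sPIA female 2, with the others at 18.1 to 18.2 CPM. Cox6a2 was 2.06 CPM in mPIA male 1, with the others at 0.919 to 1.06 CPM. Cox7a2l was 99.8 CPM in NBC female 2, with the others at 93.7 to 94.6 CPM. Atp5h was 101 CPM in NBC female 1, with the others at 109 to 110 CPM. One effect differed between the sexes by a test of the difference itself: the sPIA effect on Cox6a2, females minus males, was -2.27 log2 (edgeR adjusted p = 0.0263). This call rests on 8 to 13 counts in an sPIA female library, and it was lost without NBC female 1, sPIA male 4 or sPIA female 3. It cannot be told apart from a difference between label codes, which begin with a number in NBC females and with P in the other groups it uses.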

How the results depend on the processing

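No called member changed direction in the alternatives run. With the GC and length trend removed, the members called were 13 for sPIA against NBC in females, 11 for sPIA against mPIA in females, 2 for sPIA against mPIA in males and 7 for NBC females against males (3 higher, 4 lower). With the replicate block and the GC and length trend removed together they were 14, 12, 2 and 4 in the same order, and 0 for the sex difference of the sPIA effect. Atp5sl, among the 11 for sPIA against mPIA in females, had no annotated length or GC content, so no trend was removed from it. The replicate block alone gave 28 members (3 higher, 25 lower) for sPIA against NBC in females, with all 25 of the fit without it among them. It gave 27 for sPIA against mPIA in females, 4 in males, 17 for NBC females against males, 1 for sPIA against NBC in males and 1 for the sex difference of the sPIA effect. The numbers were not taken as pairs, because the titles do not say that they pair animals. Libraries that share a number correlated at -0.172 to 0.149 in their deviations. Libraries with different numbers were not correlated, so these values cannot decide whether the numbers pair animals. NBC and mPIA females that share a number also share the first part of their label code (86, 90 or 91), and correlated at 0.0358 to 0.149. Some codes recur between other groups as well. Whether libraries of the same code are related is not given, so they may not be independent.

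With only the compared groups fitted, 0 members were called for sPIA against NBC in males, 2 for sPIA against mPIA in males, 0 for the sex difference of the sPIA effect and 9 for NBC females against males. Library totals gave 2 for sPIA against mPIA in males and 2 for the sex difference of the sPIA effect, where DESeq2 gave 5. The choroid plexus covariate gave 0 for that difference and 10 for NBC females against males.

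Leaving out 1 library at a time gave 20 to 29 members for sPIA against NBC in females, 19 to 31 for sPIA against mPIA in females, 1 to 17 for sPIA against mPIA in males and 0 to 2 for sPIA against NBC in males. It gave 0 to 1 for mPIA against NBC in males, 0 to 3 for the sex difference of the sPIA effect and 5 to 21 for NBC females against males. The 0 members of mPIA against NBC in females and of the sex difference of the mPIA effect stayed at 0 in each alternative run. The cause of these shifts was not tested. Isoforms at a few counts in a library cannot show small changes at this depth.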
